A study of Homo sapiens with 14 samples.

Results

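This report follows 10 genes of the transforming growth factor beta (TGF-beta) pathway, TGFB1, TGFB2, TGFB3, INHBA, LTBP1, LTBP2, TGFBI, CCN2, SMAD7 and SKIL, through 14 RNA-seq libraries of IMR90 cells, which are human lung fibroblasts. They were chosen by name, and all 10 were found among the 54628 gene symbols counted. Untreated wild-type cells (WT) and untreated cells given siRNA against HMGB2 (siHMGB2) were the growing groups. The other libraries came from cells driven into senescence with inflachromene (ICM), a small molecule that binds HMGB1 and HMGB2, at 10 µM for up to 6 days. ICM was given alone (ICM) or with siRNA against SRRM2, BANF1 or CTCF (siSRRM2, siBANF1, siCTCF). Replicates 1 and 2 of ICM stand with siSRRM2 and siBANF1 in a first set of 6 ICM-treated libraries. Replicates 3 and 4 of ICM stand with siCTCF in a second set of 4 libraries, whose titles have another form and whose labels give each library a different cell-line number although the titles still say IMR90. Each of the resulting 7 groups holds 2 libraries. The labels name no control siRNA, and a pair of IMR90 isolates without saying which library came from which. They do not say whether replicates were separate cultures, so the p-values below measure only the spread between these libraries, which may be technical.

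TGF-beta is secreted as a latent dimer that stays bound to its own propeptide. Latent TGF-beta binding proteins tie this complex to the extracellular matrix, from which integrins and proteases release the active ligand. Active ligand joins type II and type I receptors, which phosphorylate SMAD2 and SMAD3, and these enter the nucleus with SMAD4. In lung fibroblasts the pathway is best known for driving matrix production and the contractile myofibroblast state. Senescent fibroblasts are known to secrete TGF-beta family ligands as part of their secretory phenotype.

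HMGB2, the gene targeted in growing cells, measured 27.7 and 28.0 CPM (counts scaled to a library total of 1000000 gene counts) in both WT libraries, against 3.18 and 3.52 in the siHMGB2 libraries. CTCF stood at 94.9 and 91.9 CPM in ICM 3 and ICM 4 and at 71.5 and 23.0 CPM in the siCTCF libraries. Libraries labelled siSRRM2 held SRRM2 at 76.0 and 76.4 CPM, below the 237.8 and 112.4 CPM of ICM 1 and ICM 2, and lower still in those labelled siBANF1 (59.0 and 17.0 CPM). BANF1 was not lower with the label siBANF1, at 17.0 and 36.7 CPM against 13.5 and 32.7 in ICM 1 and ICM 2. The names of the deposited files exchange these knockdowns, with siBANF1 in the names for the libraries labelled siSRRM2 and siSRRM2 in those for the libraries labelled siBANF1, and the values do not settle which is right. The names siSRRM2 and siBANF1 below mean the libraries with these labels. Each library held between 22336161 and 58257456 gene counts. A summed list of 11 fibroblast marker genes lay between 24070 and 42130 CPM in the untreated libraries, between 4587 and 18460 in the first ICM set and between 1861 and 4422 in the second. Epithelial markers summed to at most 1.63 CPM, and the T-cell marker CD3E was at 0 in every library. PTPRC, the pan-leukocyte marker, reached at most 0.0894 CPM and the endothelial cadherin CDH5 at most 0.0225, whereas the endothelial receptor TEK reached 240.9 CPM and the lysosomal gene CD68 103.8.

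In WT fibroblasts TGFBI, CCN2 and LTBP1 had the highest levels of the 10 genes. Per kilobase of exon, mean WT levels were 593 CPM for TGFBI, 449 for CCN2 and 162 for LTBP1. INHBA followed at 70.0, TGFB1 at 41.9 and LTBP2 at 26.3. SKIL (11.8), SMAD7 (10.7) and TGFB2 (7.34) were lower, and TGFB3 was lowest at 1.06 CPM per kilobase. TGFB1 was therefore the leading isoform in WT. In ICM 1-2 it stood at 7.94 CPM per kilobase, below TGFB2 at 11.4, and in ICM 3-4 at 60.9, far above TGFB2 at 1.72. In ICM 3-4 the mean level of TGFB1 per kilobase lay between those of TGFBI (92.0) and CCN2 (59.1), the other high genes among the 10. The libraries of these genes overlapped, at 55.1 to 66.7 for TGFB1, 50.9 to 133.1 for TGFBI and 44.9 to 73.25 for CCN2, so their order is not settled.

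**Figure D1:**
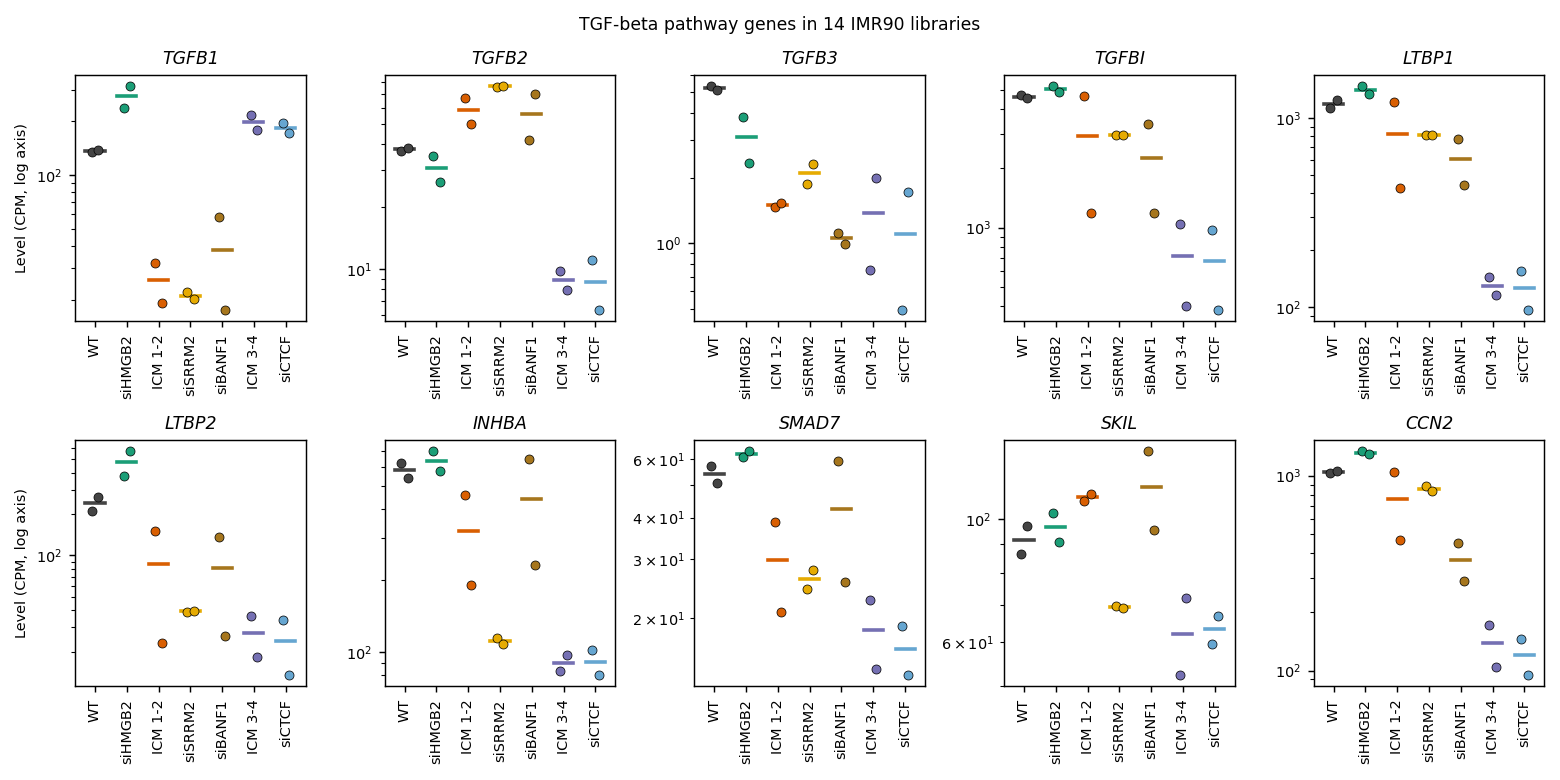
Level of each of the 10 genes in CPM (log axis) in the 7 groups. Points are single libraries and lines are the means of 2 libraries. TGFB1 lay between 17.5 and 58.0 CPM in the first ICM set and at or above 133.7 CPM in all other libraries, whereas TGFB2 was at or below 11.1 CPM only in the second set.

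TGFB1, which encodes the founding TGF-beta ligand (chr19:41330323-41353922, minus strand, build GRCh38), separated the libraries into distinct ranges. It measured 133.7 and 137.5 CPM in WT and 237.2 and 314.9 CPM in siHMGB2. It measured 32.2 and 19.2 CPM in ICM 1 and ICM 2, 22.1 and 20.2 in siSRRM2, and 58.0 and 17.5 in siBANF1. In the second set it measured 215.9 and 178.5 CPM in ICM 3 and ICM 4, and 195.9 and 170.9 in siCTCF. All 6 ICM-treated libraries of the first set thus lay below all 8 others, while every library of the second set lay above both WT libraries. With siHMGB2, TGFB1 rose by 1.09 on the log2 scale against WT (SE 0.16, 2.13-fold, edgeR adjusted p = 0.000536, higher in 2 of 2 libraries). In ICM 1-2 against WT the log2 difference was -2.42 (SE 0.42, 95% interval -3.51 to -1.33), and it did not pass the threshold (edgeR adjusted p = 0.0948). It passed with no filter (edgeR adjusted p = 2.78e-06), in DESeq2 (adjusted p = 5.91e-05) and in a single fit to all 14 libraries (edgeR adjusted p = 0.0128). It also passed with a replicate block (edgeR adjusted p = 0.00507) and a crossed one (edgeR adjusted p = 0.0107). RLE or total-count scaling and a minimum mean of 10 CPM did not take it past. With a library left out it ran from -2.98 to -2.02. In ICM 3-4 against WT the log2 difference was 0.36 (SE 0.17, edgeR adjusted p = 0.126), also not past the threshold. That difference was 0.54 both with scaling to total counts (edgeR adjusted p = 0.0301) and without ICM 4 (edgeR adjusted p = 0.00345), which took it past the threshold. Over its 10 alternatives the adjusted p ran from 0.00345 to 0.657.

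The transcript of TGFB1 is rich in G and C (63.45%), among the top 10% of tested genes by this measure. In ICM 1-2 against WT the median log2 difference of the 1439 tested genes in that top 10% was -0.46, against 0.07 over all tested genes with a known GC content, and 112 of them (7.78%) lay at or below TGFB1. In ICM 3-4 against WT the median of the top 10% was 0.00. The share of reads ambiguous between genes also differed, at 2.67% to 9.53% in the first ICM set and 1.58% to 1.91% in the other 8 libraries. So did the share of all reads counted for no gene, ambiguous ones included. It was 26.5% to 41.78% in the first ICM set and 12.75% to 18.02% in the other 8 libraries. The part of GC content and of read assignment in the TGFB1 values was not tested.

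TGFB2 encodes a second isoform of the ligand (chr1:218345336-218444619, plus strand). It measured 37.0 and 38.6 CPM in WT, and 35.0 and 26.3 in siHMGB2. First-set values were 67.1 and 50.0 CPM in ICM 1 and ICM 2, 75.5 and 76.8 in siSRRM2, and 41.8 and 69.7 in siBANF1. ICM 3 and ICM 4 measured 9.83 and 7.92 CPM, and siCTCF 11.1 and 6.35. All 6 first-set libraries lay above, and all 4 second-set libraries below, every untreated library. Against WT, TGFB2 fell by 2.27 on the log2 scale in ICM 3-4 (SE 0.21, edgeR adjusted p = 0.000808, lower in 2 of 2 libraries). In ICM 1-2 the difference was 0.60 (SE 0.33, edgeR adjusted p = 0.352), with an interval of -0.25 to 1.45. Because the second set has no untreated library, ICM treatment and set cannot be told apart in any comparison of ICM 3-4 with WT.

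The other ligand genes were TGFB3 (chr14:75958097-75983011, minus strand) and INHBA, whose product dimerises to activin A (chr7:41685114-41705406, minus strand). TGFB3 measured 5.33 and 5.10 CPM in WT, 3.82 and 2.36 in siHMGB2, and between 0.492 and 2.31 in the 10 ICM-treated libraries, all of them below every untreated library. It fell by 2.11 on the log2 scale in ICM 3-4 (SE 0.47, edgeR adjusted p = 0.0119), and by 2.92 without ICM 4, still called. In ICM 1-2 its difference was -1.84 (SE 0.43, edgeR adjusted p = 0.115) and in siHMGB2 it was -0.70 (SE 0.27, edgeR adjusted p = 0.128), both short of the threshold. INHBA measured 621.5 and 540.2 CPM in WT, 699.9 and 575.0 in siHMGB2, 455.6 and 191.9 in ICM 1 and ICM 2, and 650.9 and 231.7 in siBANF1. It measured 114.7 and 107.9 CPM in siSRRM2, 82.7 and 97.0 in ICM 3 and ICM 4, and 101.4 and 79.7 in siCTCF. INHBA was thus lowest in the siSRRM2 and second-set libraries, which did not overlap with any of the others. It fell by 2.88 on the log2 scale in ICM 3-4 against WT (SE 0.18, edgeR adjusted p = 0.00047).

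LTBP1 and LTBP2 encode latent TGF-beta binding proteins. LTBP1 binds the latent complex covalently, whereas LTBP2 does not bind latent TGF-beta and associates with elastic fibres. LTBP1 (chr2:32946953-33399509, plus strand) measured 1126 and 1248 CPM in WT and 1479 and 1337 in siHMGB2. It measured 1211 and 423.9 CPM in ICM 1 and ICM 2, 815.7 and 808.4 in siSRRM2, and 773.6 and 443.0 in siBANF1. In the second set it was between 96.6 and 154.3 CPM, below every library of the first set. LTBP1 had the largest fall of the 10 genes in ICM 3-4 against WT, -3.37 on the log2 scale (SE 0.21, edgeR adjusted p = 0.00047), to 0.0964 times the WT level. LTBP2 (chr14:74498183-74612237, minus strand) measured 210.9 and 267.6 CPM in WT, and 378.4 and 573.1 in siHMGB2. It measured 149.9 CPM in ICM 1 and 23.0 in ICM 2, 39.1 and 39.6 in siSRRM2, 136.9 and 26.1 in siBANF1, and between 13.5 and 36.2 in the second set. Its 4 untreated libraries lay above all 10 treated ones. LTBP2 rose by 1.06 on the log2 scale in siHMGB2 (SE 0.19, 2.08-fold, edgeR adjusted p = 0.00277) and fell by 3.31 in ICM 3-4 (SE 0.38, edgeR adjusted p = 0.00134). Without ICM 3 the log2 difference of LTBP2 was -3.999, still called.

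TGFBI and CCN2 are genes induced by TGF-beta whose products are secreted into the matrix. TGFBI encodes an adhesion protein (chr5:136028988-136063818, plus strand) and was the most abundant of the 10, at 4720 and 4544 CPM in WT and 5254 and 4863 in siHMGB2. It measured 4675 CPM in ICM 1 against 1180 in ICM 2, 2950 and 2968 in siSRRM2, and 3344 and 1181 in siBANF1. In the second set it measured 1040 and 397.6 CPM in ICM 3 and ICM 4, and 973.2 and 381.6 in siCTCF. ICM 1 overlapped with WT, ICM 2 did not, and the second set lay below all other libraries. TGFBI fell by 2.86 on the log2 scale in ICM 3-4 (SE 0.48, edgeR adjusted p = 0.00463), and by 3.82 without ICM 3, still called. CCN2, which encodes connective tissue growth factor, a matricellular protein (chr6:131948176-131951372, minus strand), measured 1038 and 1060 CPM in WT and 1338 and 1286 in siHMGB2. It measured 1043 and 469.6 CPM in ICM 1 and ICM 2, 881.0 and 837.1 in siSRRM2, and 450.9 and 287.4 in siBANF1. ICM 3 and ICM 4 measured 171.3 and 104.9 CPM and siCTCF 144.7 and 94.6, again the lowest. CCN2 fell by 3.10 on the log2 scale in ICM 3-4 (SE 0.29, edgeR adjusted p = 0.000844). In siHMGB2 its difference was 0.39 (SE 0.14, edgeR adjusted p = 0.0999), with both libraries above both WT libraries. DESeq2 called it (adjusted p = 0.0155), and over 11 alternatives the adjusted p ran from 0.015 to 1.

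SMAD7 and SKIL act against the pathway and are themselves induced by it: SMAD7 is the inhibitory SMAD that blocks the type I receptor, and SKIL (SnoN) is a corepressor that binds SMAD complexes. SMAD7 (chr18:48919853-48950965, minus strand) measured 57.0 and 50.8 CPM in WT and 60.9 and 63.3 in siHMGB2. It measured 38.9 and 20.9 CPM in ICM 1 and ICM 2, 24.4 and 27.8 in siSRRM2, and 59.2 and 25.7 in siBANF1. Second-set values ran from 13.5 to 22.7 CPM, and only ICM 3 overlapped with the first set. SMAD7 fell by 1.73 on the log2 scale in ICM 3-4 (SE 0.28, edgeR adjusted p = 0.00396). SKIL (chr3:170357715-170396849, plus strand) had the smallest ratio of highest to lowest library among the 10 genes. It measured 86.5 and 97.0 CPM in WT, 102.6 and 90.8 in siHMGB2, 107.8 and 111.1 in ICM 1 and ICM 2, 69.7 and 69.3 in siSRRM2, and 132.6 and 95.7 in siBANF1. ICM 3 and ICM 4 measured 52.3 and 71.9 CPM and siCTCF 59.7 and 66.9, so the second set and siSRRM2 lay below the other groups. SKIL fell by 0.75 on the log2 scale in ICM 3-4 against WT (SE 0.19, edgeR adjusted p = 0.0170). That call was lost with scaling to total counts (-0.56, edgeR adjusted p = 0.0557), without WT 1 (-0.84, edgeR adjusted p = 0.0697) and without WT 2 (-0.70, edgeR adjusted p = 0.129), the highest of its 10 alternatives, which began at 0.000145.

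**Figure D2:**
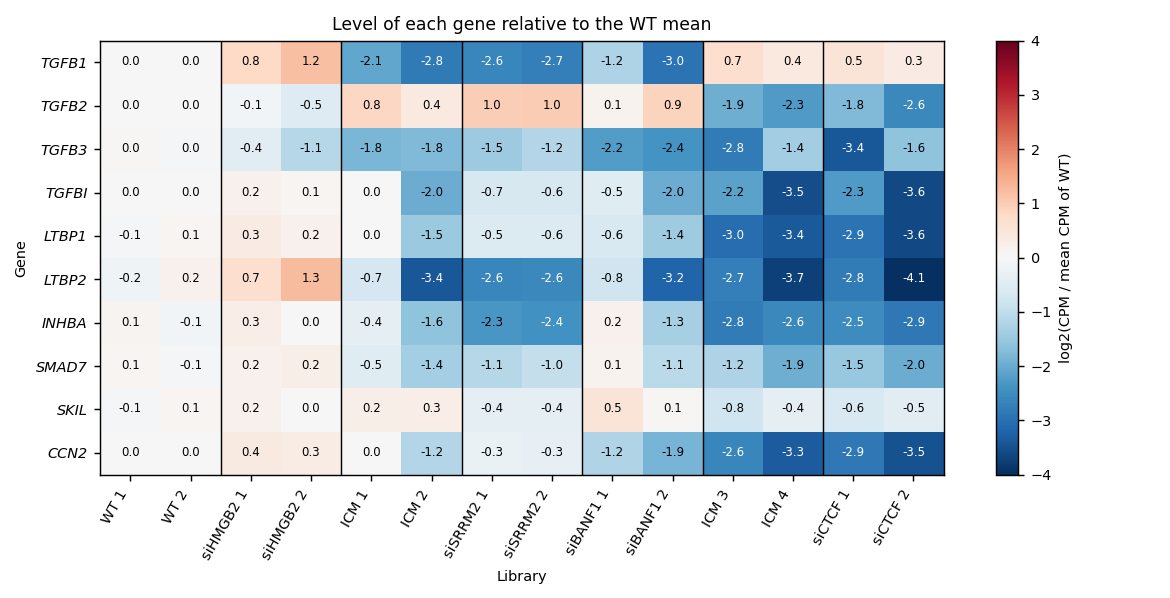
Log2 ratio of each gene's CPM to its mean in WT, for the 10 genes (rows) and 14 libraries (columns, vertical lines between groups). TGFB1 is the row in which the second set is not below WT, with ratios from 0.33 to 0.67, and TGFB2 the row in which the first ICM set is not below WT.

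The promoters of the 10 genes were searched on both strands for 4 motifs in the 250 bases before each RefSeq transcription start (GRCh38.p14), which gave 15 windows. The SMAD palindrome GTCTAGAC, the CAGA box AGCCAGACA and the AP-1 motif TGACTCA were found in none of these 15 windows, and in 0.182%, 0.231% and 4.20% of all 35116 windows. CATTCC, the core bound by TEAD factors (GGAATG on the other strand), was found in 2 of the 15, those of CCN2 and TGFB2 shown here, and in 11.9% of all windows. These searches describe letters in these windows only, and no factor's binding was measured. Both windows are shown because they are the ones with a match, and they belong to the member with the largest number of TEAD cores and to the ligand that was high in one ICM set and low in the other. Capitals mark the core, 5′ to 3′ along each gene, with the CCN2 window at chr6:131951373-131951622 on the minus strand and the TGFB2 window at chr1:218345086-218345335 on the plus strand.
CCN2: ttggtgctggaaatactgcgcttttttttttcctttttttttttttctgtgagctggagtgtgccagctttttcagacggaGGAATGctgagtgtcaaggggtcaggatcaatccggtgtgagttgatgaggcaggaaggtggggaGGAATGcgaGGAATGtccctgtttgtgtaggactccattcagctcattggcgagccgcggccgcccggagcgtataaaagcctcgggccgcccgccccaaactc
TGFB2: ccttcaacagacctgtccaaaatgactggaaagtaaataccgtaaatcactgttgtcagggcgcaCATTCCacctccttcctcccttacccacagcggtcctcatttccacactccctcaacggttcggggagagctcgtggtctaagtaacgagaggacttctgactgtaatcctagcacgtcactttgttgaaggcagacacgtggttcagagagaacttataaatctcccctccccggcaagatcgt
CCN2 holds the core 3 times, ending 164, 99 and 90 bases before the start, and TGFB2 holds it once, ending 180 bases before it.

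In growing cells, knockdown of HMGB2 was thus accompanied by more RNA of a ligand and of a matrix protein. With siHMGB2, TGFB1 and LTBP2 were called higher and none of the 10 genes lower, where 6.14% of all 15338 tested genes were called higher, 4.74% lower and 10.9% in either direction. The median log2 difference of the 10 genes was 0.23, against 0.00 over all tested genes. Scaling to total counts turned the split of all called genes from 941 higher and 727 lower to 786 higher and 999 lower, and TGFB1 and LTBP2 were called higher with either scaling. A single fit to all 14 libraries called neither gene (log2 differences 1.08 and 1.05, edgeR adjusted p = 1 for both, while the other 10 alternatives called both) and no gene at all, with 908 genes at an unadjusted p under 0.05. Its spread is shared with the ICM 1-2 and siBANF1 pairs, in which the higher library exceeded the lower by a median of 2.04 and 2.02 times over the 10 genes, against 1.08 in WT.

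A list of 78 further genes of the TGF-beta superfamily, its regulators and its known targets was examined beside them. With siHMGB2, 72 could be tested, 21 were called higher and 7 lower, with a median log2 difference of 0.22. Over all 15338 tested genes, 6.14% were called higher and 4.74% lower. Target genes made up most of the list genes called higher. Of the 21 targets tested, 12 were called higher and 2 lower, with a median of 0.79. ACTA2, the smooth muscle actin of myofibroblasts, rose from 107.4 and 206.2 CPM to 455.8 and 607.9 (log2 1.83, SE 0.24, edgeR adjusted p = 0.000356). The largest call among genes at or above 1 CPM was FSTL3, a secreted inhibitor of activin, which rose from 22.0 and 24.6 CPM to 73.0 and 102.3 (log2 1.98, SE 0.17, edgeR adjusted p = 2.22e-05). The single fit to all 14 libraries called neither of these genes (edgeR adjusted p = 0.957 for ACTA2 and 0.149 for FSTL3), while the other 10 alternatives called both.

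Other members of that list, chosen for mention after their values were seen, moved in both directions with siHMGB2. ELN (elastin, log2 1.62), POSTN (periostin, 1.50), TAGLN (transgelin, 1.75), COL1A1 (1.00) and FN1 (fibronectin, 0.88) were called higher, whereas COL3A1 (type III collagen) was called lower at -1.18. Among genes of the bone morphogenetic protein (BMP) branch, the ligand BMP4 (-1.13), the receptor ACVRL1 (-0.79), the transducer SMAD9 (-0.65) and the target ID1 (-0.56) were called lower, whereas the receptors ACVR1 (0.72) and BMPR2 (0.48) and the ligand GDF6 (1.48) were called higher. The antagonist FST (follistatin, -1.01) was called lower as well. Among receptors of TGF-beta itself, TGFBR1 (0.01) and TGFBR2 (0.13) were not called, nor was SMAD3 (0.47, edgeR adjusted p = 0.0572). COL1A1 and COL3A1 also belong to the fibroblast markers, whose sum was 35430 and 42130 CPM in siHMGB2 against 24070 and 31630 in WT. The summed smooth muscle markers, a list of which CNN1 is the main gene detected, were at 31.9 and 43.7 CPM against 10.2 and 13.0, and the part of cell state or cell type in these differences was not tested.

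**Figure D3:**
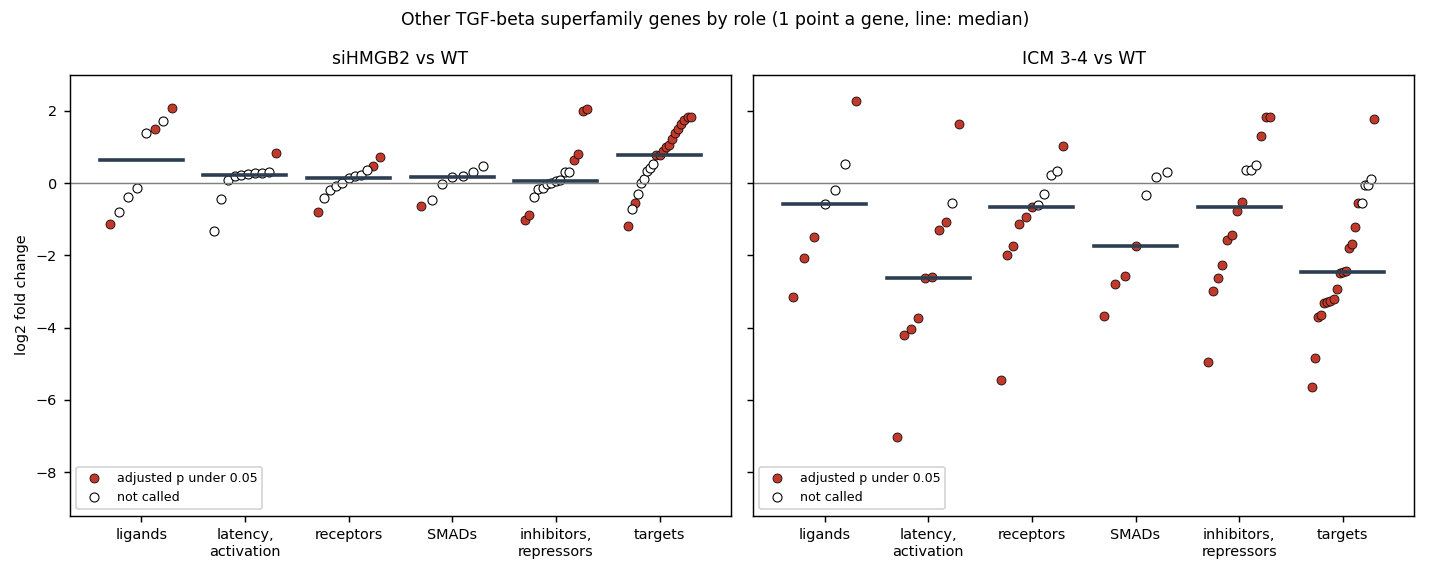
Log2 fold change of the wider pathway list against WT, by role, for siHMGB2 and for ICM 3-4. Each point is 1 gene, filled where the edgeR adjusted p was under 0.05, and lines are medians. The median of the targets was 0.79 with siHMGB2 and -2.46 in ICM 3-4.

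In the second ICM set most of the pathway was low. Against WT, 9 of the 10 genes were called lower in ICM 3-4 and none higher, where 27.3% of all 15677 tested genes were called lower, 27.8% higher and 55.2% in either direction. The median log2 difference of the 10 genes was -2.57, against 0.01 over all tested genes. In bulk RNA, fewer cells of a type and less RNA per cell cannot be told apart, and the fibroblast marker sum was 4418 and 2154 CPM in ICM 3 and ICM 4 against 24070 and 31630 in WT. That sum is no separate gauge, because its genes COL1A1, COL1A2, COL3A1 and DCN are also on the wider pathway list. Its other genes were all lower too, among them VIM (417.7 and 262.1 against 1789 and 2193 CPM) and THY1 (249.1 and 98.7 against 274.1 and 360.2). The part of fibroblast content in the lower values was not tested. Scaling to total counts moved the median of all genes from 0.01 to 0.20 and the split of all calls from 4363 higher and 4284 lower to 5142 higher and 3627 lower.

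Of the 78 further genes, 70 were tested in ICM 3-4 against WT, with 45 called lower, 7 higher and a median of -1.46. Over all 15677 tested genes, 27.3% were called lower, 27.8% higher and 55.2% in either direction. Latency and activation genes had 8 of 10 called lower and 1 higher (median -2.62), and targets had 16 of 21 lower and 1 higher (median -2.46). ITGB8, a subunit of an integrin that activates latent TGF-beta, fell from 28.9 and 32.3 CPM in WT to 0.0418 and 0.473 (log2 -7.03, SE 0.60, edgeR adjusted p = 0.000674). ELN fell from 69.4 and 88.4 CPM to 2.63 and 0.946 (log2 -5.64, SE 0.48, edgeR adjusted p = 0.000666). ACVRL1, the receptor ALK1, fell from 90.4 and 79.5 CPM to 3.31 and 1.14 (log2 -5.44, SE 0.49, edgeR adjusted p = 0.000742). With ICM 3 or ICM 4 left out these log2 differences ran from -9.51 to -6.28 for ITGB8, -6.66 to -5.03 for ELN and -6.49 to -4.81 for ACVRL1, all still called. Receptors had 6 of 11 called lower and 1 higher, SMAD genes 4 of 7 lower, inhibitors and repressors 8 of 14 lower and 3 higher, and ligands 3 of 7 lower and 1 higher. In either direction, the shares of receptors, SMAD genes and ligands called were not far from the 55.2% over all tested genes. Named after their values were seen, TGFBR1 (-1.99), TGFBR2 (-1.13) and SMAD3 (-2.80) were called lower, while SMAD4 (0.16) and SMAD2 (-0.33) were not called.

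The 7 genes called higher in ICM 3-4, also named after their values were seen, were GDF5 (2.27), NOG (noggin, a BMP antagonist, 1.84), FSTL3 (1.82), BHLHE40 (a transcriptional repressor, 1.77), NRROS (1.63), SKI (1.30) and ACVR2A (1.02). SKI, the corepressor related to SKIL, measured 323.1 and 348.6 CPM against 115.5 and 123.6 in WT, whereas SKIL was lower. FSTL3 measured 103.7 and 83.2 CPM in ICM 3 and ICM 4, and BHLHE40 80.7 and 72.4 against 19.0 and 20.6 in WT. Both were also called higher with siHMGB2, in a comparison that uses the same WT libraries.

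In the first ICM set no comparison with WT passed the threshold. edgeR called 0 of the 10 genes in ICM 1-2, where 0% of 16617 genes were called, 3664 genes had an unadjusted p under 0.05, and DESeq2 called 1917. Among the 10 genes, TGFB1 and TGFB3 had an unadjusted p under 0.05, and both were called by DESeq2 and in the single fit to all 14 libraries. ICM 1 exceeded ICM 2 in 8 of the 10 genes, by up to 6.52 times for LTBP2 and 3.96 times for TGFBI, and the exceptions were TGFB3 and SKIL, which differed by 1.04 and 1.03 times. The fibroblast marker sum was 18460 CPM in ICM 1 and 4587 in ICM 2. Without ICM 1 the log2 differences were -3.54 for LTBP2 and -2.14 for TGFBI, and without ICM 2 they were -0.62 and 0.07. In those fits the lone ICM library is assumed to vary like the WT pair. With both ICM libraries the intervals of the log2 differences were wide, from -2.79 to 1.50 for TGFBI, -2.23 to 1.17 for LTBP1, -3.88 to 1.01 for LTBP2 and -1.93 to 0.98 for CCN2. INHBA was at -0.84, SMAD7 at -0.86 and SKIL at 0.21. None of the 74 wider-list genes tested was called by edgeR, and 22 had an unadjusted p under 0.05.

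**Figure D4:**
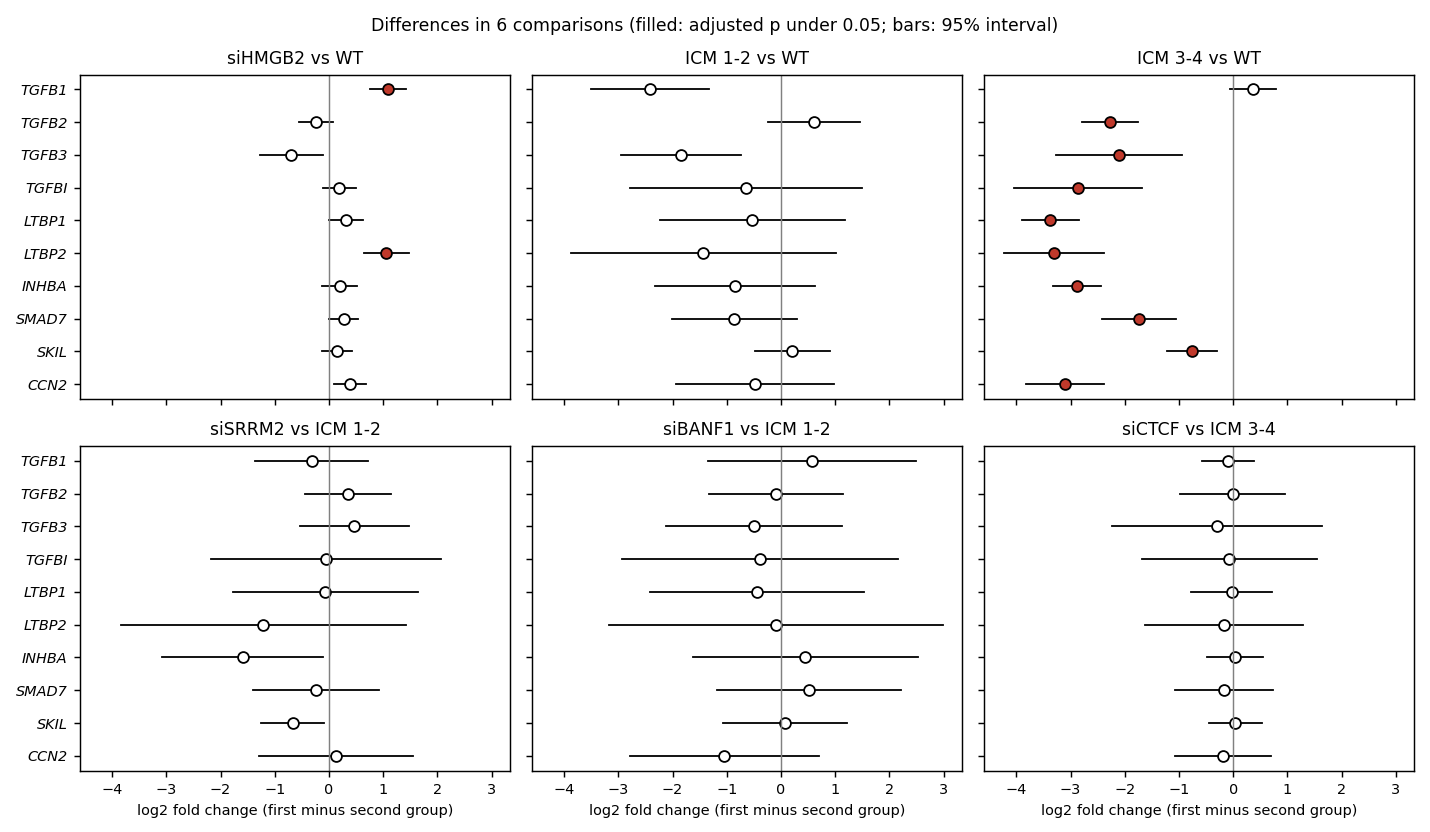
Log2 fold change of each gene with its 95% interval in the 6 comparisons, filled where the edgeR adjusted p was under 0.05. Calls are confined to siHMGB2 against WT (TGFB1 and LTBP2) and ICM 3-4 against WT (9 genes), and the intervals of the first-set comparisons are the widest for LTBP2 and TGFBI.

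The libraries labelled siSRRM2 agreed closely with each other, differing by a median of 1.03 times over the 10 genes, but were compared with the unlike pair ICM 1-2. No member was called by edgeR or DESeq2, with 0% of 16828 genes called by edgeR and 1488 at an unadjusted p under 0.05. INHBA had a log2 difference of -1.59 (SE 0.54, edgeR adjusted p = 0.563) and SKIL one of -0.67 (SE 0.21, edgeR adjusted p = 0.551), the only 2 of the 10 with an unadjusted p under 0.05. In both genes the libraries did not overlap, with siSRRM2 the lower, but the share of all genes without such overlap was not counted. TGFB2 was higher in both siSRRM2 libraries than in either ICM library, with a difference of 0.35 (SE 0.29, edgeR adjusted p = 0.726). So was TGFB3, with a difference of 0.47 (SE 0.37, edgeR adjusted p = 0.713). The log2 difference of TGFBI was 1.39 without ICM 1 and -0.71 without ICM 2. None of 74 wider-list genes was called by edgeR, and 11 had an unadjusted p under 0.05.

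No member was called in the libraries labelled siBANF1 against ICM 1-2 by edgeR or DESeq2, and none had an unadjusted p under 0.05. Of all 17616 genes, 0% were called by edgeR and 24 had an unadjusted p under 0.05. This fit ignored replicate numbers, although same-numbered libraries deviated alike (r = 0.86), so its intervals include that shared difference. With a replicate block, 1400 genes had an unadjusted p under 0.05 in edgeR, and 1 gene but no member was called. The largest difference was that of CCN2, at -1.05 (SE 0.68, interval -2.80 to 0.70), with both siBANF1 libraries below both ICM libraries. TGFB3 (-0.50, SE 0.63) was also lower in both siBANF1 libraries than in either ICM library. Here too replicate 1 exceeded replicate 2 in 9 of 10 genes, up to 5.25 times for LTBP2, with TGFB2 the exception (41.8 against 69.7 CPM). The fibroblast marker sum was 13860 CPM in siBANF1 1 and 5118 in siBANF1 2. The interval for TGFB1 ran from -1.36 to 2.50. None of 74 wider-list genes was called, and none had an unadjusted p under 0.05.

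The siCTCF libraries of the second set showed no called change from ICM 3-4. CTCF itself was not called, at 71.5 and 23.0 CPM against 94.9 and 91.9 in ICM 3 and ICM 4. No member was called by edgeR or DESeq2 or had an unadjusted p under 0.05, with 0% of 14704 genes called by edgeR and 18 at an unadjusted p under 0.05. This fit ignored pairs, although libraries paired by the numbers in their deposited names deviated alike (r = 0.82). Its intervals include that shared difference. With these pairs as a block, 711 genes had an unadjusted p under 0.05 in edgeR, and 4 genes but no member were called. The log2 differences of the 10 genes from ICM 3-4 ran from -0.31 for TGFB3 (interval -2.24 to 1.63) to 0.04 for SKIL (-0.45 to 0.53). TGFB1 was at -0.09 (-0.58 to 0.39) and INHBA at 0.03 (-0.48 to 0.54), and the interval was wider for TGFBI (-1.68 to 1.54). None of 69 wider-list genes was called, and none had an unadjusted p under 0.05.

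The ICM pairs of both sets were also compared with each other, a comparison added after the data were seen. TGFB2 was lower in ICM 3-4 by 2.90 on the log2 scale (SE 0.46, edgeR adjusted p = 0.0491) and was the only one of the 10 genes called, where 0.84% of 16195 genes were called, 0.506% lower and 0.333% higher. TGFB1 was higher by 2.75 (SE 0.49, edgeR adjusted p = 0.0576), short of the threshold, with no overlap between the pairs. It was called in 7 of its 10 alternatives, over which the adjusted p ran from 1.64e-05 to 0.0759. Without ICM 3 the TGFB2 difference was -3.00 and no longer called (edgeR adjusted p = 0.092), and without ICM 4 it was -2.63 (edgeR adjusted p = 0.186). The lowest adjusted p among its alternatives was 3.42e-06. LTBP1 (-2.87, edgeR adjusted p = 0.0777), CCN2 (-2.66, edgeR adjusted p = 0.078) and INHBA (-2.07, edgeR adjusted p = 0.0968) were not called, but LTBP1 and CCN2 were called in 5 of their 10 alternatives and INHBA in 4. Cell-line label, set and any difference in culture cannot be told apart in this comparison.

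For each member the gene most alike across the 14 libraries was found among the 9201 other genes whose mean reached 10 CPM (9202 for TGFB3, itself below that level), by Pearson correlation of log2(CPM + 1). These libraries share groups and sets, so the values only describe. TGFB1 was closest to TRAPPC1 (r = 0.99), TGFB2 to SLC8A1 (0.98), TGFB3 to MDFIC (0.93) and INHBA to NTM (0.97). LTBP1 was closest to MEIS1 (0.99), LTBP2 to ADAMTS2 (0.99), TGFBI to LAMB1 (1.00 after rounding) and CCN2 to PGAP4 (0.98). SMAD7 was closest to CAMK2N1 (0.98) and SKIL to EPS15 (0.96). No member was the closest gene of another.

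Some counts could include reads of overlapping genes or lack reads set aside as ambiguous between genes. Whether counting used strand is not given in the sources used here. In GENCODE v29 (GRCh38), 6.64% of the exon length of TGFB1 overlaps HNRNPUL1 on the opposite strand, and 8.34% of that of CCN2 overlaps an antisense gene. TGFB3, LTBP1 and LTBP2 overlap antisense genes over 3.32%, 3.40% and 2.28% of their exon length. TGFB2-OT1, which overlaps 26.6% of TGFB2 on the same strand, was listed at 0 in every library. Reads in such a shared stretch can be set aside as ambiguous, so this 0 does not mean that TGFB2 was unaffected. Levels per kilobase use the full exon length, shared stretches included. The share of each member's counts gained or lost through such overlaps was not tested.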

How the data were processed

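The files deposited for the 14 libraries give the counts of reads, unnormalized, for each gene symbol. Per the labels' protocols, RNA was isolated from Trizol lysates with DNase treatment, made into TruSeq libraries and sequenced paired-end on an Illumina NovaSeq. The submitters' processing notes name STAR 2.7.3a, HTSeq 0.12.4, DESeq2 1.36.0 and build hg38 without saying how each was used; the annotation release and strand setting are not given in the sources used here. The 5 unnamed rows of each file (12.75% to 41.78% of its reads) were left out.

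Each comparison was fitted to its own 4 libraries, because the spread between replicates differed strongly between groups, with filterByExpr, TMM scaling and the quasi-likelihood test of edgeR 4.0.16 (R 4.3.3). P-values were adjusted by Benjamini-Hochberg over all genes tested, with a call under 0.05. CPM use unadjusted totals of gene counts. The tests are two-sided, and SE is the log2 difference over the root of its F statistic. The fit was also run on simulated counts with known changes, drawn for each gene separately around a single mean per group. That simulation held no difference shared across genes between replicates or sets, so it does not bear on such differences. The alternatives were RLE (DESeq2's method) or total-count scaling, no filter, a mean of at least 10 CPM, DESeq2 1.42.0, a single fit to all 14 libraries, a replicate block, and leaving out each library; the comparison of ICM 3-4 with ICM 1-2, the crossed block and the GC content values were added after the data were seen. The members and lists were chosen with earlier results of these data known. Beyond the members, the text names up to 3 called genes of the wider list with the largest change and a mean of at least 1 CPM per comparison, and each member's most alike gene. A gene that this rule selected for siHMGB2 against WT is not reported here. Promoters and gene positions came from RefSeq (GRCh38.p14), and gene strands, exon lengths and overlaps from GENCODE v29. Figures were drawn with matplotlib 3.10.9 in Python 3.11.15.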

Additional observations from a re-analysis of the deposited data

Results flagged for a closer look

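The ICM level of TGFB2 differed between the sets of libraries by a test of the difference itself, while TGFB1 (2.75, edgeR adjusted p = 0.0576) did not pass it but was called in 7 of its 10 alternatives. For TGFB2 the log2 difference between ICM 3-4 and ICM 1-2 was -2.90 (SE 0.46, edgeR adjusted p = 0.0491), with 9.83 and 7.92 CPM in ICM 3 and ICM 4 against 67.1 and 50.0 in ICM 1 and ICM 2. The call was lost with a minimum mean of 10 CPM (edgeR adjusted p = 0.0616) and without ICM 3 or ICM 4. No group of 4 or more libraries was available to look for a library far from the others.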

How the results depend on the processing

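The main limits are 2 libraries a group, unlike replicates in ICM 1-2 and in siBANF1, and a second set with no untreated library. In ICM 3-4 against WT 9 members were called, all lower, and the alternatives that kept every library gave 8 or 9 members called. In siHMGB2 against WT, 2 members were called in the main analysis, 0 in the fit to all 14 libraries and 4 with a replicate block, which added TGFB3 (-0.73) and CCN2 (0.39). Over all genes the replicate block called 2443 of 15338. Without siHMGB2 1, the log2 difference of TGFB3 was -1.08. In ICM 1-2 against WT, where 0 members were called, no filter gave 3, DESeq2 2, the fit to all 14 libraries 2 and the replicate block 1. Over all genes these 4 fits called 2658 of 29943, 1917 of 16617, 2582 of 19126 and 1183 of 16617. Same-numbered libraries there deviated in opposite directions (r = -0.20 over 13123 genes), and the crossed replicate block called 1 member. For the other comparisons that share replicate numbers in the labels, r was 0.21 (siHMGB2 against WT), 0.06 (siSRRM2) and 0.86 (siBANF1). The labels of siCTCF share no number with ICM 3-4, and pairs taken from the numbers in the names of the deposited files gave 0.82. The labels do not say what the numbers share, and the replicate block called 0 members in siSRRM2, siBANF1 and siCTCF. In siSRRM2 against ICM 1-2, 0 members were called in the alternatives that kept every library. In siBANF1 and siCTCF 0 members were called under every alternative run. In ICM 3-4 against ICM 1-2, 1 call became 2 with total-count scaling, 7 with no filter, 0 with a mean of at least 10 CPM, 6 with DESeq2 and 6 in the fit to all 14 libraries. Over all genes, in the same order, 529 of 16195, 2809 of 29216, 65 of 9106, 2316 of 16195 and 3738 of 19126 were called. The cause of each change was not tested.

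Members that were not called changed sign as follows, in log2 differences. For siSRRM2 against ICM 1-2, TGFBI went from -0.05 to 0.015 with total-count scaling, 0.019 with no filter and 0.32 with the replicate block, and LTBP1 to 0.17 with the replicate block. For siBANF1, LTBP2 became 0.029 with the replicate block. When a library was left out, the ranges were, for ICM 1-2 against WT, TGFBI -2.14 to 0.069, LTBP1 -1.65 to 0.085 and CCN2 -1.33 to 0.048. For siSRRM2 they were TGFB1 -0.66 to 0.20, TGFBI -0.71 to 1.39, LTBP1 -0.63 to 1.00, LTBP2 -1.98 to 0.84, SMAD7 -0.62 to 0.39 and CCN2 -0.33 to 0.94. For siBANF1 they were TGFB1 -0.60 to 1.21, TGFB2 -0.44 to 0.21, TGFBI -1.38 to 1.04, LTBP1 -1.03 to 0.61, LTBP2 -1.80 to 1.94, INHBA -0.54 to 1.30, SMAD7 -0.27 to 1.12 and SKIL -0.23 to 0.33. For siCTCF they were TGFB1 -0.25 to 0.09, TGFB2 -0.53 to 0.37, TGFB3 -1.41 to 0.52, TGFBI -0.97 to 0.84, LTBP1 -0.47 to 0.30, LTBP2 -1.07 to 0.46, INHBA -0.21 to 0.23, SMAD7 -0.50 to 0.26, SKIL -0.14 to 0.25 and CCN2 -0.60 to 0.25. For ICM 3-4 against ICM 1-2 they were TGFB3 -1.05 to 0.31 and LTBP2 -2.71 to 0.21.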

Other observations

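In the wider list, SMURF2 lay higher in all 6 libraries of the first ICM set than in the 8 others. SMURF2, which encodes a ubiquitin ligase that targets TGF-beta receptors, measured between 408.5 and 637.8 CPM in the 6 first-set libraries, 151.9 to 189.7 in the untreated ones and 45.5 to 85.7 in the second set. Within the first set, FSTL3 was at 99.5 and 105.0 CPM in ICM 1 and ICM 2 and at 92.2 and 95.5 in siBANF1, but at 32.1 and 34.5 in siSRRM2. COL3A1 was at 3110 and 3021 CPM in siSRRM2, within the range of WT (2867 and 3606), against 1967 and 275.2 in ICM 1 and ICM 2. These genes were picked after their values were seen and are given as values only. NODAL was listed at 0 in all 14 libraries, and ID3 at 0 in WT, siHMGB2 and the second set.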
